A study of Mus musculus with 6 samples.

Results

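Macrophages high in Mmp12, Gpnmb and Fabp5 made up 589 of 42902 barcodes in 6 droplet single-cell RNA libraries. The labels name the cells as 4T1, an established line from a mouse mammary tumour that is widely grown in mice as a breast cancer model. In 3 libraries the line carried a non-targeting short hairpin RNA (shNC) and in the other 3 a hairpin against Pgk1 (shPgk1), the gene of the glycolytic enzyme phosphoglycerate kinase 1. Both hairpins were carried in by lentivirus (48 h) before 7 days under puromycin (2 µg/mL), so the control cells were transduced and selected as well. The labels give no host, age, organ or tumour site for either group. They call the 3 libraries of a group biological replicates without saying which animals or cultures they came from. A p-value between groups reflects only the spread between libraries, which may be technical. A p-value between cell sets of the same libraries reflects how much their difference varied over the libraries, which may be technical as well.

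Lipid-associated macrophages take up lipid and dead cell material and digest it in their lysosomes. Fabp5 encodes a cytoplasmic fatty acid carrier, Gpnmb a membrane glycoprotein of the lysosome whose transcription is driven by MiT-TFE factors, and Mmp12 the secreted macrophage elastase. Cells with this programme are known from obese fat tissue, atherosclerotic plaques, injured tissue and tumours.

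The bases before the start sites of 4 genes are shown because 2 genes of the rule for members, Mmp12 and Gpnmb, can be set beside Mmp13 and Prdx1, which rose in members (below). Each is the 250 bases before the start in the RefSeq annotation of GRCm38.p6, 5′ to 3′ on the plus strand. Capitals mark TGANTCA, the motif of AP-1 factors, which was searched on both strands. Mmp12 has 2 annotated start sites, with windows at chr9:7344147-7344396 and chr9:7347124-7347373. The windows of the other genes are chr9:7272264-7272513 for Mmp13, chr4:116685349-116685598 for Prdx1 and chr6:49036268-49036517 for Gpnmb.
Mmp12, start 1: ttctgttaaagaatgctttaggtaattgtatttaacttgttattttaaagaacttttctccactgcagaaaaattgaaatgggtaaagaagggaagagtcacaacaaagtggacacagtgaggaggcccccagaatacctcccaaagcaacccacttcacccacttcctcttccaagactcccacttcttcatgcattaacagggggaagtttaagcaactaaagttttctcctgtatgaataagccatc
Mmp12, start 2: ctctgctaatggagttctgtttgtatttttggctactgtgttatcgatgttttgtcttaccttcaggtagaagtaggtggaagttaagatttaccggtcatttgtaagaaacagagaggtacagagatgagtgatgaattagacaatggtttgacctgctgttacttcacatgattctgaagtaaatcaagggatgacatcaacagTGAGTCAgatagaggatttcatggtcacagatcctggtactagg
Mmp13: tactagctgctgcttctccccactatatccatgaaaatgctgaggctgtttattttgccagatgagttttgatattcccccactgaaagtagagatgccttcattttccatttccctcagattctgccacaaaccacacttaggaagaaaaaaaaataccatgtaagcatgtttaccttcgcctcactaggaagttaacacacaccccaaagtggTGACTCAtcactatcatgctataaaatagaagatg
Prdx1: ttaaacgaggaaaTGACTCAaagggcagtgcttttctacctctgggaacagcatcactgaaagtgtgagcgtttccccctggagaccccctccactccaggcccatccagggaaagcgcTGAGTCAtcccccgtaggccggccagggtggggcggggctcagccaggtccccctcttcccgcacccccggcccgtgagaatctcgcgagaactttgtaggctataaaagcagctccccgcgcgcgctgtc
Gpnmb: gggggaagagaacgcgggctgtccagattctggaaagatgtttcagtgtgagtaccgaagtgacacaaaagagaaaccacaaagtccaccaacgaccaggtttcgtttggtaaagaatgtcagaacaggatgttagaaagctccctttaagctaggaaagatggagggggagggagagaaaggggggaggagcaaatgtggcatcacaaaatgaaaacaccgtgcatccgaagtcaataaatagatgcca
The motif began 44 bases before the second start of Mmp12, 35 bases before the start of Mmp13, and 237 and 131 bases before that of Prdx1. These letters were not in the Gpnmb window or in that of the first Mmp12 start. A gene is counted once here, over all its start sites in the table.

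TGANTCA was found in 2113 of the 27025 genes with a promoter in the table (7.82%). Of the 12 genes with the largest rises in members (below) 8 were in the table and 3 held it, namely Mmp13, Prdx1 and Tnfrsf9. Of the 12 with the largest falls 11 were in the table and 0 held it. TCACGTGA, a motif of MiT-TFE factors, was found in 0.907% of all genes, in 4 of 25 lysosomal genes in the table (Ctsa, Ctsd, Gla and Mcoln1) and in 1 of 12 V-ATPase genes (Atp6v1a). TGANNNNGC, the core of the NRF2 element, was found in 38.7% of all genes and in 9 of 17 NRF2 and glutathione genes. It was also found in 4 of the 8 largest rises and 6 of the 11 largest falls in the table. For TCACGTGA these counts were 0 of 8 and 1 of 11 (Il1r2). TGANTCA and TGANNNNGC can overlap in 1 stretch of bases. A match describes the letters and does not show a bound site.

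Members were chosen by their own counts of these genes. Among barcodes that showed 300 genes or more and no more than 20% mitochondrial UMIs (unique molecular identifiers, which count captured RNA molecules), 42259 remained. Macrophages had at least 5 UMIs of Csf1r, Cd68 and Adgre1 together per 10000 and more of these than of Epcam, Krt7, Krt8 and Krt18. After 554 cycling cells (4 or more UMIs of Mki67, Top2a and Cenpf) were left out, 6791 macrophages remained. The top 10% by the sum of Mmp12, Gpnmb and Fabp5 held 679 cells, and 90 of them were dropped for being in the top 25% by C1qa, C1qb and C1qc. The cells just inside the first limit had 35.4 and 35.5 UMIs of the 3 genes per 10000 and those just outside 35.3 and 35.2. For C1q, the values nearest the limit were 121.3 in a member and 122.4 in a cell left out. The median 3-gene sum was 58.7 per 10000 in members and 3.68 in the 6202 other macrophages, which follows from the choice.

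The 3 genes weighed unequally in this choice. Fabp5 gave 57.2% of the 3-gene UMIs in members, Mmp12 41.1% and Gpnmb 1.66%. Fabp5 was the most frequent of the 3 in 329 members and Mmp12 in 258, while 2 members were tied and Gpnmb led in 0. A Gpnmb UMI was present in 243 members. By each gene alone, 405 members were in the top 10% of macrophages for Mmp12, 394 for Fabp5 and 210 for both. The members are therefore best described as Mmp12-high or Fabp5-high macrophages, since Gpnmb hardly entered the sum.

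Levels are given in CPM, the summed UMIs of a gene over the members of a library, scaled to the total of that sum. Mmp12 stood at 2396, 2795 and 3158 CPM (shNC replicates 1 to 3) and 2245, 3396 and 4116 CPM (shPgk1 replicates 1 to 3). Fabp5 stood at 4192, 3898 and 2837 CPM (shNC replicates 1 to 3) and 5091, 3601 and 3166 CPM (shPgk1 replicates 1 to 3). Gpnmb stood at 92.6, 158 and 105 CPM (shNC replicates 1 to 3) and 128, 78.6 and 94.6 CPM (shPgk1 replicates 1 to 3). The groups overlapped for each of these genes. In the other macrophages they reached at most 339, 642 and 13.3 CPM. UMI counts are not corrected for transcript length, so levels are compared between cell sets and not between genes.

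Libraries held 78778073 to 128933960 UMIs, and their member sums 686947 to 2840160 UMIs. Members were deeper than other macrophages, with medians of 19222 and 14994.5 UMIs per cell. Between groups, the median depth of members was 18356 ± 656 UMIs in shNC and 20638 ± 2033 in libraries labelled shPgk1 (SD, n = 3 and 3, two-sided exact permutation test, p = 0.2), and ribosomal-RNA-like transcripts took 8.06 ± 0.341% and 6.40 ± 0.198% (p = 0.1, the smallest this exact test allows). A doublet score of 0.25 or more was found in 2 members (0.340%) and 33 other macrophages (0.532%). Barcodes are serial numbers in the files, so shared barcodes could not be counted, but 0 barcode profiles were identical between libraries. In tumour-like barcodes, which the hairpin was aimed at, Pgk1 stood at 273, 239 and 226 CPM (shNC replicates 1 to 3) and 244, 292 and 312 CPM (shPgk1 replicates 1 to 3). The groups overlapped and the libraries labelled shPgk1 had the higher mean, so the knockdown was not visible in the targeted gene and these libraries are called by their label.

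The members carried macrophage genes, whereas the labels name only the tumour line. The 12 macrophage identity genes outside the rule summed to 11695 to 14605 CPM in members, 15198 to 16906 CPM in other macrophages and 699.9 to 1666 CPM in T-like barcodes. Of the 3 marker genes that the rule did not use, Arg1, Hmox1 and Lgals3 each rose in members (values below). The 12 epithelial genes summed to 289 to 586 CPM in members against 302 to 630.2 CPM in other macrophages and 3778 to 5037 CPM in tumour-like barcodes. The 14 T and NK genes summed to 43.7 to 101 CPM in members and 5295 to 7923 CPM in T-like barcodes. Of 9 B lineage genes 2 were at 0 in every member library, and the 9 summed to 3.14 to 22.5 CPM. Conventional dendritic markers summed to 39.5 to 80.1 CPM in members and 81.3 to 138 CPM in other macrophages, and plasmacytoid dendritic markers to 247 to 335 CPM and 389 to 438 CPM, lower in members without overlap. Neutrophil markers summed to 152 to 846 CPM in members and 217 to 1129 CPM in other macrophages.

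**Figure D1:**
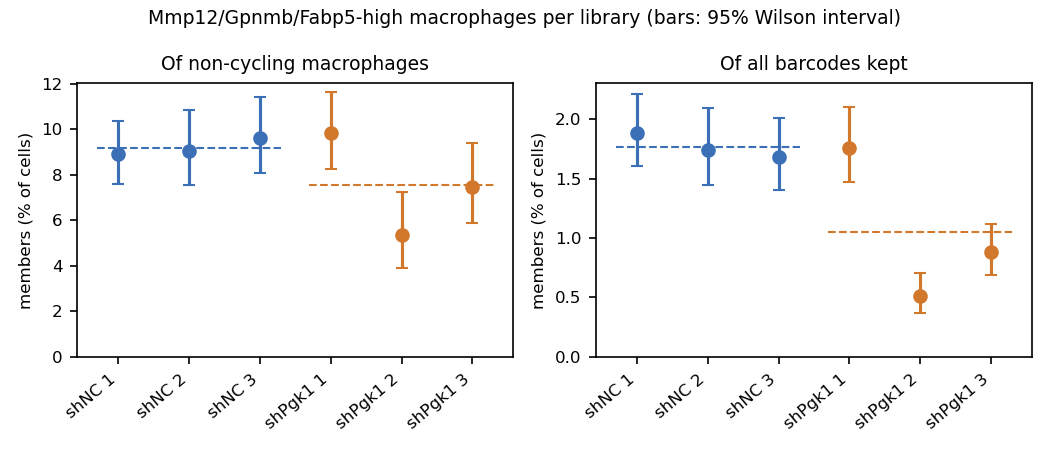
Members as a percentage of non-cycling macrophages and of all barcodes kept, with 1 point per library and bars for the 95% Wilson interval, which covers counting error only, and dashed lines for group means. Replicate 1 labelled shPgk1 lies near the shNC libraries, and replicates 2 and 3 labelled shPgk1 lie lower.

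Members made up 8.91%, 9.08% and 9.62% of macrophages for shNC against 9.84%, 5.36% and 7.46% for libraries labelled shPgk1. The highest and the lowest share both came from libraries labelled shPgk1, so the groups overlapped. The means were 9.20 ± 0.373% and 7.55 ± 2.24% (SD, n = 3 and 3), a difference of -1.65 points that did not exceed the spread (two-sided exact permutation test, p = 0.4, adjusted p = 0.4 over 2 shares). Of all barcodes kept, members were 1.88%, 1.74% and 1.68% for shNC against 1.76%, 0.512% and 0.879% for libraries labelled shPgk1, a difference of -0.718 points (exact permutation test, p = 0.3, adjusted p = 0.4). Macrophages as a whole made up 19.3 ± 1.84% and 13.1 ± 4.31% of barcodes (exact permutation test, n = 3 and 3, p = 0.2). Replicates 1 and 2 labelled shPgk1 set the size of the difference: without the former it was -2.79 and -1.07 points (exact permutation test, p = 0.1 for both, the smallest that 3 against 2 libraries allow), and without the latter -0.552 and -0.449 points.

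Members were then set against the other macrophages of the same libraries. Of 11482 genes tested, edgeR's quasi-likelihood test with the library as a term called 2916 (25.4%) at an adjusted p under 0.05, 1564 higher (13.6%) and 1352 lower (11.8%). Cells chosen for 3 genes differ by construction in whatever goes with these genes, so the counts of each list below are read against these percentages and are no independent support for the set. The lists share genes, so their counts are not separate from each other. Ctsl and Ctsd are both lipid-associated and lysosomal, Plin2 is both lipid-associated and a droplet gene, and Slc2a1 is on the glycolysis and hypoxia lists. Differences are log2 with an SE taken from edgeR's fit, as the size of the difference over the square root of its F statistic. This SE draws on the variance of all genes and is not the spread of the differences over 6 libraries. The median over all genes tested was 0.01. Without a filter on low counts the split was 1126 higher and 1955 lower, with a median of -0.22.

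**Figure D2:**
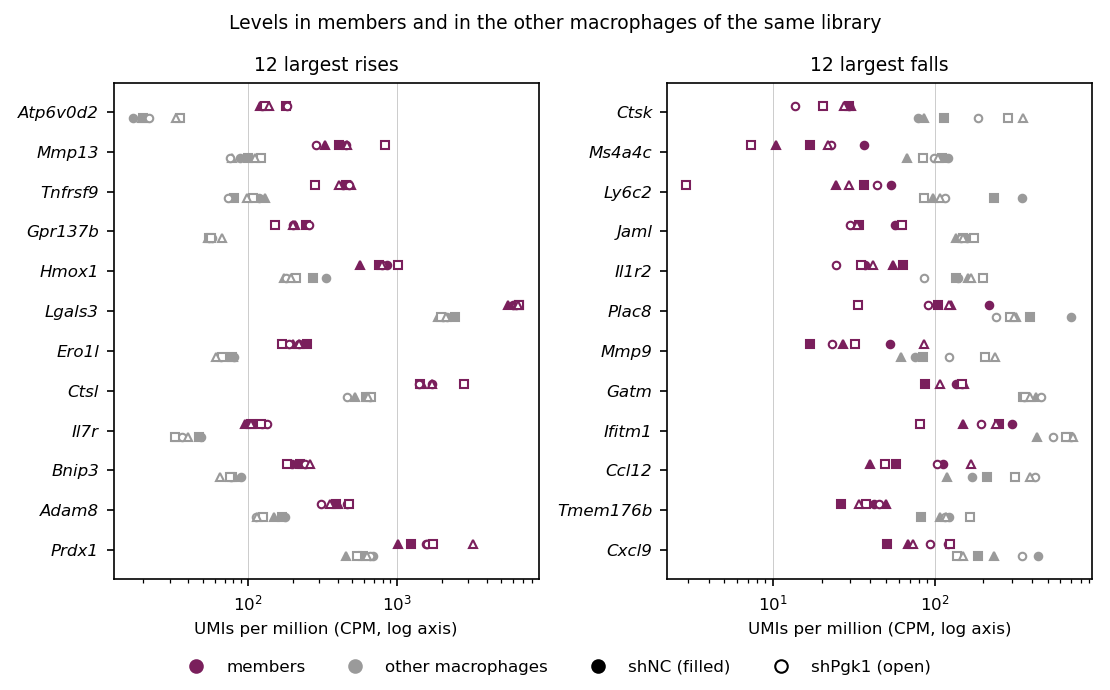
Levels of the 12 genes with the largest rises and the 12 with the largest falls among genes of at least 50 CPM, in members and in other macrophages, in CPM on a log axis with 1 point per library. By the naming rule all 6 libraries differ in 1 direction for each gene, and Atp6v0d2 and Mmp13 show the widest gaps among the rises.

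Most listed genes of lipid-associated macrophages rose. Of 20 tested genes of lipid-associated macrophages outside the rule, 18 were higher and 1 lower, with a median of 0.92. Lgals3, galectin-3, a lectin that gathers at damaged lysosomes, stood at 5992, 6519.6 and 5523 CPM (shNC replicates 1 to 3) and 6289, 6591 and 6406 CPM (shPgk1 replicates 1 to 3) in members and at 1877 to 2446 CPM in other macrophages. Members and other macrophages did not overlap for Lgals3, which rose by 1.73 ± 0.06 (edgeR adjusted p = 6.03e-17). Plin2, a coat protein of lipid droplets, rose by 1.10 ± 0.06. Cd36, a fatty acid translocase and scavenger receptor, stood at 25.7, 40.4 and 23.4 CPM (shNC replicates 1 to 3) and 45.1, 34.9 and 80.5 CPM (shPgk1 replicates 1 to 3) in members, against 5.19 to 14.1 CPM. Cd36 rose by 2.35 ± 0.21 (edgeR adjusted p = 3.95e-06), with no overlap between the sets. Trem2, a lipid-sensing receptor, rose only by 0.41 ± 0.06, from 304 to 365 CPM in other macrophages to 388 to 414 CPM.

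A few further genes of that list were picked for their known roles after their values were seen. Lpl, lipoprotein lipase, rose by 2.02 ± 0.14, Fabp4, another fatty acid carrier, by 1.79 ± 0.22, and Spp1, osteopontin, by 0.85 ± 0.08. Apoe, the apolipoprotein of macrophage lipid export, fell by 0.26 ± 0.06, with 11980.2 to 19007 CPM in members and 16450.2 to 24213 CPM in other macrophages. With C1q-high cells taken out of the other macrophages, a setting added after the data were seen, the list stood at 18 higher and 0 lower, and Apoe was no longer called.

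Lipid storage and cholesterol genes moved in both directions. Lipid droplet and triglyceride genes were 9 higher and 4 lower of 15. Soat1, which esterifies cholesterol, rose by 0.89 ± 0.07 and Hilpda, an inhibitor of triglyceride breakdown, by 0.71 ± 0.06, while G0s2, another such inhibitor, fell by 1.28 ± 0.16. The call for G0s2 was lost with the top 20% in place of the top 10% (edgeR adjusted p = 0.346) and in barcodes of 5000 to 30000 UMIs (edgeR adjusted p = 0.589). G0s2 is also on the neutrophil marker list. That list went from 1 higher and 4 lower of 10 to 1 higher and 1 lower of 10 in those barcodes. The part of neutrophil RNA in the fall of G0s2 was not tested. Cholesterol efflux genes were 6 higher and 3 lower of 14, with the efflux pump Abcg1 at 0.97 ± 0.08 and the desaturase Scd2 at 1.32 ± 0.08, while the apolipoprotein gene Apoc2 fell by 0.75 ± 0.09. Cholesterol synthesis and uptake genes were 0 higher and 5 lower of 18, among them the synthase gene Fdps (fell by 0.67 ± 0.11). Fatty acid oxidation genes were 3 higher and 4 lower of 17. Scavenger and phagocytic receptors were 4 higher and 6 lower of 15, with the dead-cell receptor Axl down by 0.78 ± 0.08 and the Fc receptor gene Fcgr4 down by 1.00 ± 0.09.

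Many lysosomal genes rose. Of 32 hydrolase and membrane genes 17 were higher and 6 lower. Ctsl, the protease cathepsin L, stood at 1726, 1432 and 1459.9 CPM (shNC replicates 1 to 3) and 1401, 2802 and 1722 CPM (shPgk1 replicates 1 to 3) in members and at 461 to 673 CPM in other macrophages, a rise of 1.69 ± 0.07 without overlap. The acid lipase gene Lipa rose by 1.26 ± 0.07, the cathepsin D gene Ctsd by 1.08 ± 0.06 and the saposin precursor Psap by 0.98 ± 0.06. V-ATPase subunits, which build the proton pump of the lysosome, were 12 higher and 0 lower of 17. Their d2 subunit, Atp6v0d2, was the largest of the 12 rises plotted, at 124, 181 and 121 CPM (shNC replicates 1 to 3) and 185, 131 and 138 CPM (shPgk1 replicates 1 to 3) in members and 17.0 to 35.3 CPM in other macrophages. It rose by 2.83 ± 0.23 (edgeR adjusted p = 0.000221), and no library of members overlapped. Atp6v1c1 rose by 1.36 ± 0.12 and Atp6v1a by 0.74 ± 0.08.

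MiT-TFE and lysosomal regulator genes were 8 higher and 1 lower of 13. Rragd, a GTPase of lysosomal nutrient sensing, rose by 2.67 ± 0.28 at a low level, from 1.05 to 2.55 CPM to 5.28 to 16.2 CPM. Rragc rose by 0.60 ± 0.10 and Fnip2, a partner of the same GTPases, by 0.58 ± 0.09, while the autophagy gene Uvrag fell by 0.74 ± 0.08. Gpr137b, a lysosomal membrane protein, rose by 2.04 ± 0.11.

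Many haem, iron and redox genes also rose. Hmox1, haem oxygenase 1, stood at 858, 762 and 566 CPM (shNC replicates 1 to 3) and 789.7, 1019 and 793 CPM (shPgk1 replicates 1 to 3) in members and at 174 to 334 CPM in other macrophages. The sets did not overlap, and Hmox1 rose by 1.98 ± 0.11 (edgeR adjusted p = 6.38e-08). Haem and iron genes were 9 higher and 0 lower of 20, with the ferritin chains Ftl1 and Fth1 at 1.25 ± 0.06 and 1.05 ± 0.07 and the haem transporter Slc48a1 at 1.14 ± 0.09. With C1q-high cells out of the other macrophages they were 8 higher and 0 lower of 19, and their median went from 0.39 to 0.03. In barcodes of 5000 to 30000 UMIs they were 8 higher and 1 lower of 19. NRF2 targets and glutathione genes were 12 higher and 1 lower of 18. The glutathione transferase Gstm1 rose by 2.20 ± 0.11 and peroxiredoxin 1, Prdx1, by 1.61 ± 0.19, while Nfe2l2, the gene of NRF2, fell by 0.57 ± 0.09. Prdx1 in members ranged from 1021 CPM in shNC replicate 3 to 3208 CPM in shPgk1 replicate 3.

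Arg1 and some secreted proteases rose. Arg1, arginase 1, which breaks down arginine, stood at 2821, 2057 and 1991 CPM (shNC replicates 1 to 3) and 1682, 3115 and 2332 CPM (shPgk1 replicates 1 to 3) in members, and at 868 to 1169 CPM in other macrophages. All member libraries lay above all others, and Arg1 rose by 1.33 ± 0.07 (edgeR adjusted p = 2.99e-12). Arginine and polyamine genes were 7 higher and 0 lower of 14, and 4 higher and 0 lower with C1q-high cells out of the other macrophages. Of 18 matrix proteases and inhibitors outside the rule, 6 were higher and 3 lower. Collagenase 3, Mmp13, stood at 452, 406 and 329.6 CPM (shNC replicates 1 to 3) and 285, 829.8 and 465 CPM (shPgk1 replicates 1 to 3) in members and at 75.5 to 122 CPM in other macrophages, a rise of 2.36 ± 0.08 (edgeR adjusted p = 5.55e-15). The highest Mmp13 value came from the smallest member set, shPgk1 replicate 2, with 38 cells. Mmp8, the neutrophil collagenase, rose by 3.28 ± 0.21 to 36.6 to 84.4 CPM and Adam8, a membrane protease, by 1.65 ± 0.07, while Mmp25 fell by 1.66 ± 0.23. Of 10 neutrophil markers tested, Mmp8 was the only one called higher and 4 were lower, with S100a8 down by 0.79 ± 0.13.

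Mmp9, gelatinase B, fell by 1.46 ± 0.32 (edgeR adjusted p = 0.0231), a call lost with the top 5% in place of the top 10% (edgeR adjusted p = 0.063) and without any of shNC replicate 2, shNC replicate 3, shPgk1 replicate 1 or shPgk1 replicate 3 (edgeR adjusted p = 0.0699, 0.0516, 0.0682 and 0.0651). Ctsk, cathepsin K, the bone-resorbing protease of osteoclasts, fell by 2.37 ± 0.44 (edgeR adjusted p = 0.0139), with 13.8 to 30.6 CPM in members and 79.4 to 354 CPM in other macrophages. Ctsk was lower still in C1q-high macrophages (3.99 to 14.3 CPM) and in monocyte-like macrophages (5.59 to 21.2 CPM), so its high level lay in the remaining macrophages. Osteoclast-associated genes were 2 higher and 6 lower of 11, with the fusion gene Ocstamp down by 1.66 ± 0.22 and the transcription factor Nfatc1 by 0.85 ± 0.12. Atp6v0d2, the largest rise plotted, is on this list too. Against C1q-high macrophages the list stood at 3 higher and 4 lower of 9. Against monocyte-like macrophages it stood at 5 higher and 3 lower of 9.

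Most glycolysis and hypoxia genes rose. Glycolysis genes were 15 higher and 0 lower of 20, with a median of 0.68. The glycolytic genes Gapdh, Tpi1, Aldoa and Ldha rose by 0.90 ± 0.06, 0.93 ± 0.06, 0.93 ± 0.06 and 0.87 ± 0.06. Pgk1, the gene named in the hairpin, stood at 674, 659 and 625 CPM (shNC replicates 1 to 3) and 601, 710.4 and 792 CPM (shPgk1 replicates 1 to 3) in members and at 389 to 439.7 CPM in other macrophages. Each member library was above every library of the other macrophages, and Pgk1 rose by 0.83 ± 0.06. Hypoxia-responsive genes were 15 higher and 0 lower of 20, with a median of 0.95. Adm, the vasodilator peptide adrenomedullin, rose by 2.99 ± 0.14, the disulfide oxidase Ero1l by 1.70 ± 0.08, the mitophagy receptor Bnip3 by 1.68 ± 0.09 and the glucose transporter Slc2a1 by 1.02 ± 0.07. Integrated stress response genes were 8 higher and 0 lower of 14, with the transcription factors Atf5 and Atf4 at 1.81 ± 0.14 and 0.81 ± 0.08 and the kinase inhibitor Trib3 at 2.04 ± 0.22.

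**Figure D3:**
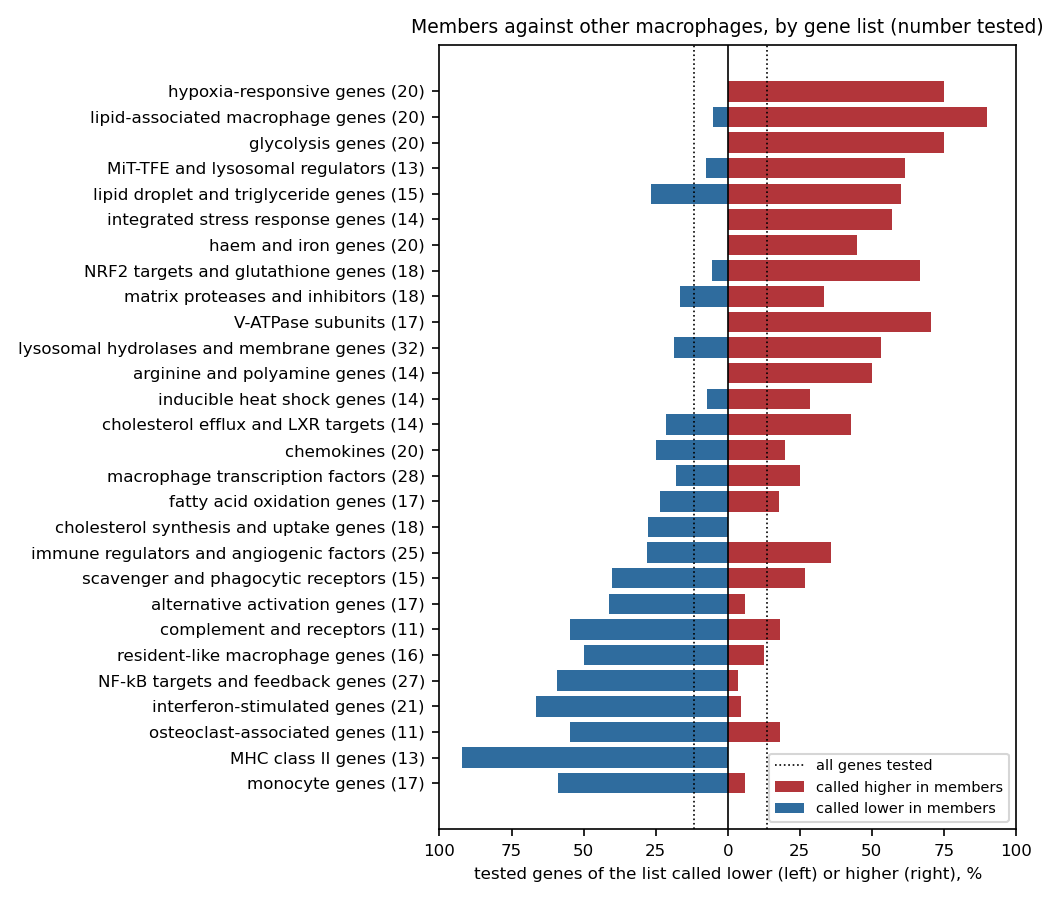
Percentage of the tested genes of each list called higher (right) or lower (left) in members against other macrophages, with dotted lines at the shares of all genes tested. Lipid-associated, glycolysis, hypoxia and V-ATPase genes extend to the right, and MHC class II, interferon-stimulated, NF-kB and monocyte genes to the left.

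Most antigen presentation, interferon and NF-kB genes fell. MHC class II genes, which present antigen to CD4 T cells, were 0 higher and 12 lower of 13. H2-Eb1 stood at 2991, 2192 and 2681 CPM (shNC replicates 1 to 3) and 2968, 2064 and 1705 CPM (shPgk1 replicates 1 to 3) in members and at 3938 to 5656 CPM in other macrophages, and it fell by 0.82 ± 0.06 without overlap. Conventional dendritic markers, given above, were also lower in members, and their part in this fall was not tested. The peptide-loading genes H2-DMb1 and H2-DMb2 fell by 1.12 ± 0.07 and 1.13 ± 0.07. Interferon-stimulated genes were 1 higher and 14 lower of 21, among them Zbp1, a sensor of nucleic acids, which fell by 0.72 ± 0.09. The interferon-induced chemokine Cxcl9 fell by 1.34 ± 0.24, a call lost with the top 5% (edgeR adjusted p = 0.118) and with C1q-high cells kept among members (edgeR adjusted p = 0.139). Aif1, an actin-binding macrophage protein, fell by 1.32 ± 0.07, although it belongs to the identity list, where 2 higher and 4 lower of 12 were called.

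NF-kB targets and feedback genes were 1 higher and 16 lower of 27. Il1b, the cytokine interleukin 1 beta, stood at 1648, 953 and 1679.9 CPM (shNC replicates 1 to 3) and 1220.2, 2003 and 1294 CPM (shPgk1 replicates 1 to 3) in members and at 2701 to 3745 CPM in other macrophages, and it fell by 0.92 ± 0.07. The adhesion gene Icam1 fell by 0.91 ± 0.11. The gene of the list that rose was Il1rn, the antagonist of the interleukin 1 receptor, by 1.03 ± 0.08, with 323 to 465 CPM in members against 154 to 304 CPM. The decoy receptor gene Il1r2 fell by 1.56 ± 0.16. Chemokines were 4 higher and 5 lower of 20, with Ccl9 and Ccl6, which attract myeloid cells, at 1.39 ± 0.11 and 1.28 ± 0.10. The monocyte chemokine Ccl12 fell by 1.40 ± 0.27, a call lost with C1q-high cells out of the other macrophages (edgeR adjusted p = 0.0821) and without shNC replicate 2 (edgeR adjusted p = 0.0559) or shPgk1 replicate 1 (edgeR adjusted p = 0.0563).

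Monocyte genes were 1 higher and 10 lower of 17. Ccr2, the chemokine receptor of blood monocytes, fell by 1.82 ± 0.15, Ly6c2, a surface antigen of classical monocytes, fell by 2.07 ± 0.27 and Ms4a4c fell by 2.11 ± 0.14. Ly6c2 stood at 53.5, 36.8 and 24.4 CPM (shNC replicates 1 to 3) and 44.3, 2.91 and 29.7 CPM (shPgk1 replicates 1 to 3) in members, the lowest of them from 2 UMIs in the smallest set, against 86.6 to 349 CPM in other macrophages. Plac8 fell to 33.5 to 217 CPM from 240.4 to 697 CPM, the junction protein gene Jaml fell by 1.60 ± 0.12 and the interferon-induced Ifitm1 fell by 1.44 ± 0.23. Gatm, an enzyme of creatine synthesis, fell by 1.45 ± 0.08 and Tmem176b, a membrane protein of myeloid cells, by 1.37 ± 0.10.

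Resident-like macrophage genes were 2 higher and 8 lower of 16 and stood at 5 higher and 4 lower with C1q-high cells out of the other macrophages, so their direction depended on the cells compared. Igf1, insulin-like growth factor 1, rose by 2.19 ± 0.24, while Retnla, a marker of interleukin 4 response, fell by 3.12 ± 0.31 and the lectin Clec10a by 1.72 ± 0.25. Alternative activation genes were 1 higher and 7 lower of 17, with Ccl17, a chemokine of the same response, at -1.25 ± 0.32. That value reversed to 0.22 with the top 20% (edgeR adjusted p = 0.851), and its call was also lost in barcodes of 5000 to 30000 UMIs. Complement genes were 2 higher and 6 lower of 11, with factor B, Cfb, down by 0.96 ± 0.07 and the integrin Itgam up by 0.72 ± 0.07.

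Tnfrsf9 and Il7r, both better known from T cells, were among the 12 largest rises of genes of at least 50 CPM with the same direction in 6 of 6 libraries. Tnfrsf9, the costimulatory receptor 4-1BB, stood at 436, 454 and 491 CPM (shNC replicates 1 to 3) and 478, 284 and 406 CPM (shPgk1 replicates 1 to 3) in members, against 74.1 to 130.2 CPM in other macrophages and 390.1 to 619 CPM in T-like barcodes, a rise of 2.25 ± 0.21. Il7r, the interleukin 7 receptor chain, stood at 96.1 to 134 CPM in members, 32.5 to 48.6 CPM in other macrophages and 58.7 to 115 CPM in T-like barcodes, a rise of 1.68 ± 0.09. Over the T and NK list the calls were 0 higher and 1 lower of 13. Among transcription factors, 7 higher and 5 lower of 28, Bhlhe41 rose by 2.36 ± 0.13 and Rxra, a partner of lipid-sensing nuclear receptors, by 0.89 ± 0.10.

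Against the 1698 C1q-high macrophages, the top 25% by complement C1q, edgeR called 3429 of 9602 genes (35.7%), 1757 higher (18.3%) and 1672 lower (17.4%). The C1q limit of the rule sets these cells apart from members, so this contrast is in part built into the choice. Among genes outside the rule of at least 50 CPM with the same direction in 6 of 6 libraries, members exceeded these cells most in Atp6v0d2 (3.37 ± 0.22), Inhba, the activin A subunit (3.18 ± 0.30), Tnfrsf9 (2.97 ± 0.31), Mmp13 (2.46 ± 0.15), Il7r (2.41 ± 0.13) and Gpr137b (2.27 ± 0.09). By the same rule, the largest falls were in Ccl12 (2.23 ± 0.22 lower), the cyclooxygenase Ptgs1 (2.14 ± 0.11 lower), complement C4b (2.02 ± 0.15 lower), Jaml (1.89 ± 0.12 lower), Aif1 (1.81 ± 0.07 lower) and Cxcl9 (1.76 ± 0.25 lower). Resident-like genes were 1 higher and 11 lower of 15, with the folate receptor Folr2 down by 1.66 ± 0.14 and the selenium carrier Selenop by 1.07 ± 0.07. Lipid-associated genes were 14 higher and 3 lower of 20, with a median of 0.57. Hypoxia-responsive genes were 16 higher and 0 lower of 20 and glycolysis genes 15 higher and 0 lower of 20. Lysosomal genes were mixed against these cells, 11 higher and 14 lower of 32, with Ctsl up by 1.66 ± 0.08 and Ctsc down by 1.09 ± 0.07. Apoe fell by 0.88 ± 0.06, and Ctsk, lower in members than in all other macrophages, was higher than in these by 1.49 ± 0.20. Without a filter on low counts the split was 1427 higher and 2089 lower.

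Against the 665 monocyte-like macrophages, the top 10% by Ly6c2, Ms4a4c and Ly6i outside both sets above, edgeR called 2703 of 7652 genes (35.3%), 1293 higher (16.9%) and 1410 lower (18.4%). Choosing these cells by monocyte genes sets them apart from members, so this contrast too is in part built into the choice. Falls of other monocyte genes below are no independent support for it. Lipid-associated genes were 19 higher and 0 lower of 20, with a median of 1.60, and lysosomal genes 20 higher and 2 lower of 32. Among genes outside the rule of at least 50 CPM with the same direction in 6 of 6 libraries, the largest rises were in Atp6v0d2 (6.23 ± 0.19), the chemokine Pf4 (4.26 ± 0.33), Tnfrsf9 (3.92 ± 0.13), the chemokine Ccl8 (3.63 ± 0.41), Mfge8, a bridge to dying cells (3.58 ± 0.16), and adenosine deaminase, Ada (3.42 ± 0.17). Falls by the same rule were led by Plac8 (4.00 ± 0.38 lower), Ccr2 (3.77 ± 0.21 lower), Ly6c1 (3.55 ± 0.16 lower) and Hopx (2.53 ± 0.13 lower). Resident-like genes were 10 higher and 0 lower of 11, with Igf1 up by 4.12 ± 0.29. Ctsk was also higher in members here, by 1.12 ± 0.22, and MHC class II genes were 0 higher and 11 lower of 11. Monocyte-like cells were shallower, with a median of 11292 UMIs, and the part of depth in these counts was not tested.

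The members were not uniform. The 258 led by Mmp12 and the 329 led by Fabp5 are described by the ratio of their mean levels over 6 libraries with 5 CPM added, and with no test, since the split uses the genes of the rule. Of 1938 genes of at least 50 CPM, 62 (3.2%) were at least 1.5-fold higher in Mmp12-led members in 6 of 6 libraries and 23 (1.19%) lower. Mmp12-led members were 37.9%, 50.9% and 53.0% of members for shNC against 28.8%, 31.6% and 63.1% for libraries labelled shPgk1.

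Some NF-kB targets and chemokines were higher in Mmp12-led members. NF-kB targets were 7 higher and 0 lower of 20 genes of that level, and interferon-stimulated genes 0 higher and 0 lower of 11. Il1b stood at 2179.7 ± 744 CPM against 952 ± 279.8 CPM in Mmp12-led and Fabp5-led members (mean ± SD, n = 6, log2 ratio 1.19). Il1rn followed at 1.13, Il1a at 1.43 and the prostaglandin synthase Ptgs2 at 1.24. Of 18 chemokines 6 were higher and 2 lower, with the neutrophil-attracting Cxcl3, Cxcl1 and Cxcl2 at 2.17, 1.42 and 1.20. Inhba had 584 ± 325 CPM against 103 ± 57.5 CPM and Tnfrsf9 667 ± 166 CPM against 242 ± 61.7 CPM, log2 ratios of 2.45 and 1.44. Mmp8 (1.94) and Mmp13 (1.14) went with Mmp12, as did the cystine transporter Slc7a11 (1.29), Prdx1 (1.20) and Spp1 (1.29).

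**Figure D4:**
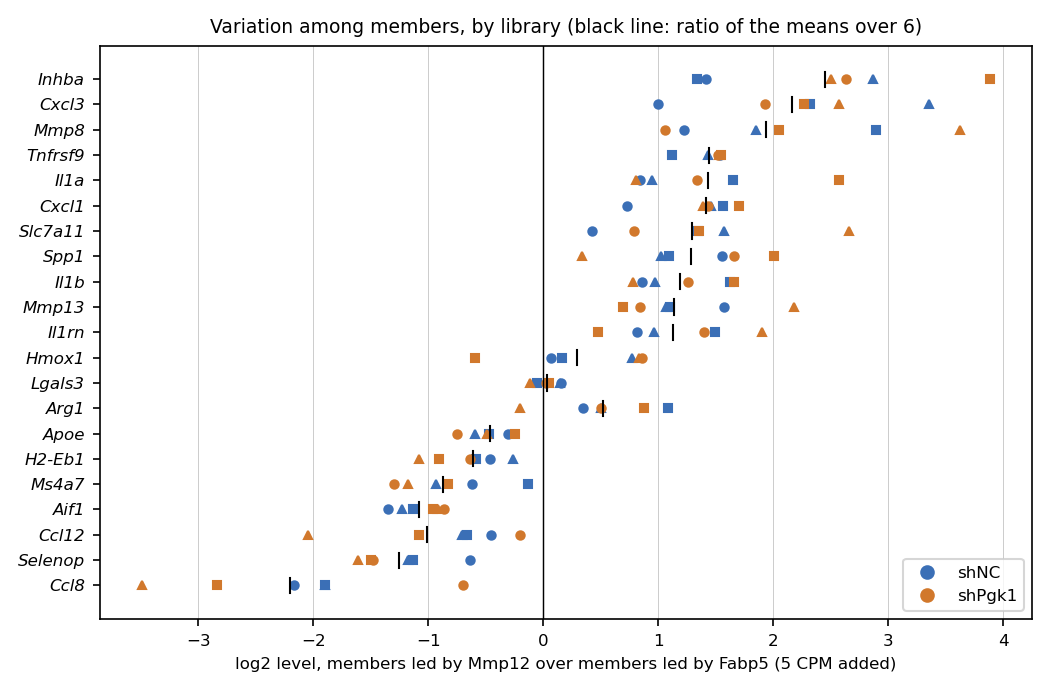
Log2 level in members led by Mmp12 over members led by Fabp5, with 1 point per library (circles, squares and triangles for replicates 1 to 3) and a black line for the ratio of the means. Inhba, Mmp8, Tnfrsf9 and Il1b lie to the right of 0, Ccl8 and Selenop to the left, and Lgals3 near 0.

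Fabp5-led members had more Ccl8, a monocyte-attracting chemokine, with 649 ± 294 CPM against 3012 ± 1435 CPM (Mmp12-led first, log2 ratio -2.21). Selenop (-1.26), the Fc receptor of antibody recycling Fcgrt (-1.26), Ms4a7 (-0.87), Apoc2 (-0.81) and H2-Eb1 (-0.61) lay on the same side. Lgals3 (0.03), Gpnmb (0.03) and Trem2 (-0.07) were near 0, while Hmox1 (0.29) and Arg1 (0.52) were higher in Mmp12-led members in 5 and 5 of 6 libraries. Glycolysis genes were 0 higher and 0 lower of 16, hypoxia genes 0 higher and 0 lower of 13 and V-ATPase genes 0 higher and 0 lower of 15.

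Across all non-cycling macrophages the 3 genes of the rule went together weakly. Spearman's rho within a library, a description over cells that share depth and library, had a median over 6 libraries of 0.28 for Mmp12 and Fabp5 (0.25 to 0.36), 0.22 for Mmp12 and Gpnmb and 0.25 for Fabp5 and Gpnmb. Mmp12 was closest to Lgals3 (0.49) and Gapdh (0.41) among the list genes. Fabp5 was closer to lysosomal genes, with Ctsb at 0.46 and Ctsd at 0.41. Gpnmb was closest to Atp6v0d2 (0.30).

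Between groups, few genes of the members were called. Of 8747 genes tested in members of libraries labelled shPgk1 against shNC, edgeR called 2 (0.0229%), 0 higher and 2 lower, and 530 (6.06%) had an unadjusted p under 0.05. DESeq2 called 22 genes and edgeR without a filter on low counts 116. In edgeR's fit with that filter no gene of the lists above was called. DESeq2 called Fos higher (adjusted p = 0.00219), and edgeR without the filter called Fos, Cd36, Gclm, Txnrd1, Cxcl1 and Serpinb2 higher and G0s2, Nos2 and Adm lower, among others. Pgk1 differed by 0.00 ± 0.13, with an interval of 2 SE from -0.27 to 0.27, so a change of Pgk1 in members larger than that lay outside the interval. Arg1 stood at -0.04 ± 0.19, Hmox1 at 0.15 ± 0.16 and Lgals3 at 0.00 ± 0.13, none of them called. The lipid-associated list had a median of 0.02, glycolysis -0.08, hypoxia -0.21 and MHC class II -0.20, against 0.01 over all genes.

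The 2 genes called were lower in other cells of the same libraries too. Ccdc162, a coiled-coil gene, stood at 176, 187 and 117 CPM (shNC replicates 1 to 3) and 58.1, 75.7 and 53.7 CPM (shPgk1 replicates 1 to 3) in members, with no overlap, and it fell by 1.48 ± 0.21 (edgeR adjusted p = 0.0187). It stood at 163, 135 and 165 CPM (shNC replicates 1 to 3) and 76.3, 74.4 and 99.9 CPM (shPgk1 replicates 1 to 3) in other macrophages and 29.2, 25.3 and 34.3 CPM (shNC replicates 1 to 3) and 14.3, 10.2 and 12.2 CPM (shPgk1 replicates 1 to 3) in tumour-like barcodes. The call was lost with the top 5% or 20%, in barcodes of 5000 to 30000 UMIs, and without shNC replicate 1, shNC replicate 2 or shPgk1 replicate 3 (edgeR adjusted p = 0.864, 0.135, 0.098, 0.073, 0.0581 and 0.106). Gm14015, outside the naming rule and chosen after its values were seen, had 105, 42 and 43 UMIs in shNC members and 0 in each library labelled shPgk1 (edgeR adjusted p = 0.000717), and DESeq2 gave no adjusted p for it. A count of 0 allows up to 1.15, 4.37 and 2.12 CPM there, against 37.0, 18.9 and 20.6 CPM in shNC. In other macrophages Gm14015 stood at 38.0, 22.6 and 21.5 CPM (shNC replicates 1 to 3) and 0, 0.588 and 0.224 CPM (shPgk1 replicates 1 to 3).

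**Figure D5:**
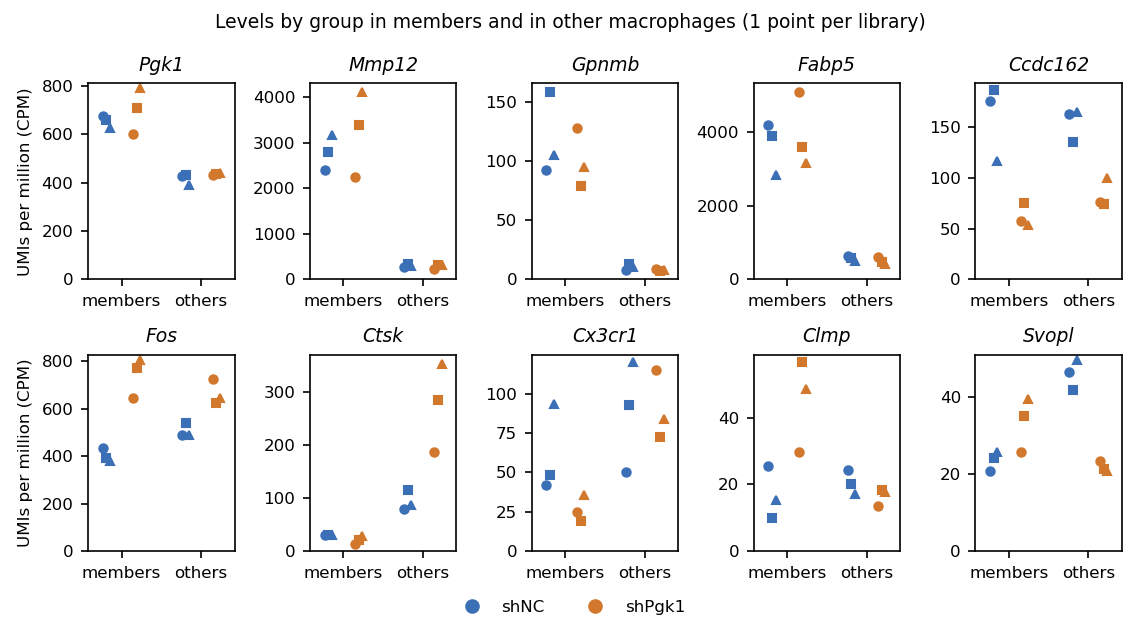
Levels by group in members and in other macrophages, in CPM, with 1 point per library. For Ccdc162 the shPgk1 points lie below the shNC points in both sets. For Ctsk they lie above the shNC points in the other macrophages and below them in members.

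Further genes came near the threshold without passing it in edgeR's fit, and some passed it in an alternative. Fos, an AP-1 subunit, stood at 436, 392 and 379.8 CPM (shNC replicates 1 to 3) and 643, 773 and 807 CPM (shPgk1 replicates 1 to 3) in members, without overlap, a difference of 0.78 ± 0.13 (edgeR adjusted p = 0.0664, and DESeq2 adjusted p = 0.00219). In other macrophages Fos stood at 487, 540.0 and 488 CPM (shNC replicates 1 to 3) and 725, 624 and 645 CPM (shPgk1 replicates 1 to 3), in the same order. The collagen genes Col3a1 and Col1a1 differed by -1.35 ± 0.24 and -1.20 ± 0.21 (edgeR adjusted p = 0.0829 and 0.0933, DESeq2 adjusted p = 0.00653 and 0.000809). edgeR called Col3a1 in barcodes of 5000 to 30000 UMIs (adjusted p = 0.0198) and Col1a1 with the replicate block (adjusted p = 0.0476), and both without the filter. DESeq2 called Zfand5 higher (1.06, DESeq2 adjusted p = 0.00653). It called Phactr2, Eml2 and Rarres2 lower (-1.05, -1.09 and -1.19, DESeq2 adjusted p = 0.00872, 0.0499 and 0.0487). These genes also passed in edgeR without the filter. Without shPgk1 replicate 1, edgeR called Hspa1a and Hspa1b lower and Fos, Txnrd1, Cxcl1 and Cxcl2 higher, among others. The fibroblast marker list holds Col3a1 and Col1a1 themselves, so its sum is not separate from them. It came to 612 to 914 CPM in shNC members and 293 to 531 CPM in members labelled shPgk1. In other macrophages it came to 645 to 926 CPM in shNC and 364 to 478 CPM in libraries labelled shPgk1. Neutrophil markers in members summed to 446 to 846 CPM in shNC and 152 to 275 CPM in libraries labelled shPgk1. Epithelial markers were higher in the members labelled shPgk1, at 289 to 435 CPM in shNC and 483 to 586 CPM in libraries labelled shPgk1. Mast or basophil markers were lower, at 42.6 to 151 CPM in shNC and 24.7 to 34.0 CPM in libraries labelled shPgk1. Other macrophages shifted the same way, with neutrophil markers at 752 to 1129 CPM in shNC and 217 to 621 CPM in libraries labelled shPgk1. Epithelial markers stood there at 302 to 447 CPM and 457 to 630 CPM, and mast or basophil markers at 51.2 to 149 CPM and 24.1 to 35.9 CPM (shNC first). For each of these lists the groups did not overlap in either set. The part of RNA from other cell types in the group differences was not tested.

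Whether the group difference itself differed between members and other macrophages was tested as an interaction. Of 12245 genes, edgeR called 4 (0.0327%), with Clmp and Svopl higher (2 genes, 0.0163%) and Ctsk and Cx3cr1 lower (2 genes, 0.0163%), and 576 (4.70%) had an unadjusted p under 0.05. Ctsk, which led them at -2.15 ± 0.19 (edgeR adjusted p = 7.25e-07), stood at 29.6, 29.6 and 30.6 CPM (shNC replicates 1 to 3) and 13.8, 20.4 and 27.5 CPM (shPgk1 replicates 1 to 3) in members and at 79.4, 115 and 86.1 CPM (shNC replicates 1 to 3) and 187, 286 and 354 CPM (shPgk1 replicates 1 to 3) in other macrophages. In other macrophages, libraries labelled shPgk1 were all above shNC, a difference that was not tested by itself. In members they were all below shNC, and that difference of -0.69 ± 0.25 was not called. The osteoclast-associated list, which holds Ctsk itself, also shifted in other macrophages. It summed there to 726 to 775 CPM in shNC and 896 to 1520 CPM in libraries labelled shPgk1, without overlap. In members the sums overlapped, at 549 to 621 CPM and 547 to 825 CPM (shNC first). The part of this shift in the Ctsk interaction was not tested. The interaction call for Ctsk was lost with the top 20% (edgeR adjusted p = 0.984) and with a replicate block (edgeR adjusted p = 0.0513), under which 0 genes were called.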

How the data were processed

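Raw UMI counts per gene and barcode were deposited by the authors as 1 sparse matrix per library. PISA 0.12 and Seurat 4 are the tools named in the submitters' processing notes, and GRCh38 and hg38 the builds, whereas 97.6% of the 28649 gene names were found in the mouse annotation GENCODE M21. The members and gene lists were chosen with earlier results of these data known. Counts were summed per library and cell set and tested with edgeR 4.0.16 (R 4.3.3, limma 3.58.1) by its quasi-likelihood test, with TMM scaling, filterByExpr and Benjamini-Hochberg adjustment over all genes tested. DESeq2 1.42.0 was an alternative. Shares were tested with an exact permutation test over 3 against 3 libraries in scipy 1.17.1. Doublets were scored with Scrublet in scanpy 1.11.5 and kept. Its own limit marked 0 to 123 barcodes per library, so 0.25 was used for the setting without them. The scripts were tested on simulated counts. T-like barcodes had at least 2 T cell receptor UMIs and more of these than of macrophage or epithelial rule genes, and tumour-like barcodes had at least 5 epithelial UMIs per 10000 and more of these than of macrophage genes.

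Named genes were the 12 largest rises and falls against other macrophages (50 CPM or more, 1 direction in 6 of 6 libraries), 6 each way against the other 2 sets, genes past the threshold or with the smallest p between groups (20 CPM or more), up to 4 genes per list by smallest p, and the rule and marker genes with Pgk1. Other list genes were chosen after their values were seen. Genes of the rule were not tested. Wilson intervals are at 95% and, like the limit of 3 counts for a count of 0, cover counting error only.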

Additional observations from a re-analysis of the deposited data

Results flagged for a closer look

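The group difference (shPgk1 against shNC) differed between members and other macrophages for 4 genes by edgeR's interaction test, given here as members minus others on the log2 scale. For Ctsk it was -2.15 ± 0.19 (edgeR adjusted p = 7.25e-07), with the values given above. Clmp, a cell adhesion molecule, differed by 1.63 ± 0.25 (edgeR adjusted p = 0.00469), with 25.7, 9.88 and 15.3 CPM (shNC replicates 1 to 3) and 29.8, 56.8 and 48.7 CPM (shPgk1 replicates 1 to 3) in members and 24.2, 20.1 and 17.2 CPM (shNC replicates 1 to 3) and 13.6, 18.2 and 17.8 CPM (shPgk1 replicates 1 to 3) in other macrophages. Its call was lost with the top 20%, in barcodes of 5000 to 30000 UMIs and with the replicate block. Svopl, a transporter-like gene, differed by 1.48 ± 0.23 (edgeR adjusted p = 0.00469), with 20.8, 24.2 and 25.8 CPM (shNC replicates 1 to 3) and 25.6, 34.9 and 39.5 CPM (shPgk1 replicates 1 to 3) in members and 46.5, 41.7 and 49.6 CPM (shNC replicates 1 to 3) and 23.5, 21.3 and 20.8 CPM (shPgk1 replicates 1 to 3) in other macrophages, where the groups did not overlap. Its call was lost under those settings, with the top 5%, and without shNC replicate 1 or shPgk1 replicate 3 (edgeR adjusted p = 0.0621 and 0.095). Cx3cr1, the fractalkine receptor, differed by -1.31 ± 0.22 (edgeR adjusted p = 0.0253), with 41.9, 48.0 and 93.3 CPM (shNC replicates 1 to 3) and 24.8, 18.9 and 35.3 CPM (shPgk1 replicates 1 to 3) in members and 50.4, 92.8 and 119.9 CPM (shNC replicates 1 to 3) and 115, 72.3 and 84.1 CPM (shPgk1 replicates 1 to 3) in other macrophages, where the groups overlapped. Its call was lost under the settings named for Svopl other than without shPgk1 replicate 3, with C1q-high cells out of the other macrophages, and without shNC replicate 3, shPgk1 replicate 1 or shPgk1 replicate 2 (edgeR adjusted p = 0.14 without shNC replicate 1, then 0.192, 0.158 and 0.124). In members alone none of the 4 was called by edgeR.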

How the results depend on the processing

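Between groups in members, edgeR called 2 genes. DESeq2 called 22, edgeR without a filter on low counts 116, the top 20% 9, a replicate block 5, and leaving out 1 library 1 to 9 (1 without shNC replicate 2, 7 without shNC replicate 3 and 9 without shPgk1 replicate 1). The interaction called 4 genes, against 27 without a filter, 2 with the top 5%, 1 in barcodes of 5000 to 30000 UMIs, 0 with the replicate block and 3 to 11 without 1 library (11 without shPgk1 replicate 1). Deviations of same-numbered libraries from their group means showed little correlation in members (-0.053, -0.067 and -0.042). That cannot show whether same-numbered libraries were handled together. With the block the shares had p = 0.5 and 0.25 by an exact sign-flip test, where 0.25 is the smallest p it allows. Against other macrophages the count of 2916 ranged from 2216 to 3081, and Ccl17 reversed from -1.25 to 0.22 with the top 20%. For each of these counts the cause was not tested. Depth limits low genes: in the smallest member sum, 38 cells of shPgk1 replicate 2, a count of 0 allows up to 4.37 CPM.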

Other observations

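Genes of signalling to other cells moved in both directions in members against other macrophages. Immune regulators and angiogenic factors were 9 higher and 7 lower of 25 by edgeR. The inhibitory receptor genes Lilr4b and Lilrb4a rose by 0.57 ± 0.06 and 0.52 ± 0.07, while Tgfbi, a matrix protein induced by TGF-beta, fell by 0.78 ± 0.07 and Ptgs1, cyclooxygenase 1, by 1.49 ± 0.11. The endothelial receptor gene Kdr rose by 1.44 ± 0.24 and Plvap by 1.07 ± 0.34, and the 9 endothelial markers summed to 43.6 to 115 CPM in members and 54.1 to 73.3 CPM in other macrophages. The part of endothelial RNA in these values was not tested. Inducible heat shock genes were 4 higher and 1 lower of 14, and the calls for Hsp90aa1, Bag3 and Hspa1a among them were each lost under 6 or more of the settings tried.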
